A study of Homo sapiens with 6 samples.

Results

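The DNA replication and S phase genes described here are 38 named genes of origin licensing, the replicative helicase, nucleotide supply, the polymerases, the G1/S cyclins, and S phase chromatin and repair. They were found by gene symbol in a count table of 60664 genes, which held each of the 38 once. The study asked which transcripts change in PC9OR cells after knockdown of GLMP, a lysosomal membrane protein gene that the series title ties to resistance against EGFR inhibitors. PC9OR is a human line that the labels call lung cancer cells. One group, si-GLMP, held 3 libraries of PC9OR cells with GLMP knocked down, and the other, NC, held 3 control libraries of the same line. The labels name neither the siRNA sequence, nor the time of harvest, nor what NC received, and a single line was used.

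A cell licenses its origins in G1, when ORC, CDC6 and CDT1 load the MCM helicase onto DNA. Cyclin D with CDK4 or CDK6, and then cyclin E with CDK2, inactivate the RB protein and so free the E2F factors, which switch on most genes of S phase. CDC45 and the GINS complex then turn the loaded MCM ring into the active helicase, and the polymerases, the PCNA clamp and the nucleotide enzymes carry the synthesis. In lung cancer cells with mutant EGFR, cyclin D is one of the outputs of the receptor.

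GLMP (ENSG00000198715; GRCh38 chromosome 1, 156290089 to 156295689, minus strand) went with the labels. It had 82, 61 and 65 counts in si-GLMP replicates 1 to 3, against 309, 344 and 347 counts in NC replicates 1 to 3, and it fell by 2.25 ± 0.14 on the log2 scale (SE; adjusted p = 1.16e-18 in edgeR). Totals lay between 20313899 and 21041277 counts in si-GLMP libraries and between 19896875 and 22372878 counts in NC libraries. Mitochondrially encoded genes took 5.19% to 5.51% of the counts in si-GLMP libraries and 6.51% to 8.76% in NC libraries, with NC replicate 2 the highest. All 14 calls of members described below held with these genes left out. The 7 epithelial markers summed to 8311 to 9303 CPM (TMM-scaled, reads of a gene set against the size of its library) in si-GLMP libraries and 9114 to 9391 CPM in NC libraries. Within this sum EPCAM, CDH1 and MUC1 rose by 0.30, 0.30 and 0.59 on the log2 scale and KRT7 fell by 0.27 (adjusted p in edgeR of 0.000294, 0.000358, 0.00603 and 0.00105), and KRT8, KRT18 and KRT19 did not pass. The 4 markers of the lung lineage (NKX2-1, NAPSA, SFTPB and SFTPC) were near 0, with 14 to 16 summed counts per si-GLMP library and 7 to 17 per NC library. The 5 leukocyte markers had 9 to 22 summed counts per si-GLMP library and 15 to 30 per NC library, with LYZ and TYROBP at 0 in all 6. The 5 fibroblast markers summed to 10.4 to 12.0 CPM in si-GLMP libraries and 5.59 to 7.13 CPM in NC libraries, mostly COL1A1. COL1A1 rose by 0.91 on the log2 scale without overlap (adjusted p = 1.59e-06 in edgeR), and COL3A1 was at 0 in all 6. Endothelial markers, 4 in number, summed to 6.78 to 7.64 CPM in si-GLMP libraries and 4.82 to 7.68 CPM in NC libraries. The part of these marker levels in the results was not tested.

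More of the replication genes fell than rose after GLMP knockdown, most of them by little; CDK6 and RRM1 fell most, and RRM2 and CCNE2 rose most. All 38 passed the filter on low counts, and at an adjusted p under 0.05 in edgeR, 11 were lower and 3 higher with GLMP knocked down. Together these are 36.8% of the members, where 23.3% of all 15900 tested genes were called. Lower calls made up 28.9% of the members against 11.3% of all tested genes, and higher calls 7.89% against 12.0%. The median log2 fold change of the 38 was -0.08, against 0.00 over all tested genes. The members were more abundant, with a median of 80.9 CPM against 16.2 CPM over all tested genes. CDK6 and RRM1 alone had an absolute log2 fold change over 0.5, and 12 members lay within 0.1 of zero. In bulk RNA, fewer cells in S phase and less of a transcript per cell cannot be told apart.

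The groups did not overlap in CPM for 19 members (50%), 15 lower and 4 higher in si-GLMP, where 36.5% of all tested genes did not overlap. The 38 genes summed to 4273, 4226 and 4026 CPM in si-GLMP replicates 1 to 3, against 4547, 4461 and 4448 CPM in NC replicates 1 to 3. Every si-GLMP library was thus below every NC library in this sum, whose mean was 4175 CPM in si-GLMP and 4485 CPM in NC. Abundant members weigh most in it, and CDK6 and CCND1, with levels given below, made up much of the drop. The sum therefore does not show a fall shared by the members. The count of lower members was 7 without NC replicate 1 and 6 without si-GLMP replicate 3, and otherwise 9 to 12 with 1 library left out. The 3 higher calls became 2 without NC replicate 3, si-GLMP replicate 1 or si-GLMP replicate 3. Of the 14 called members, 8 kept the call in all 15 alternatives, namely CDK6, RRM1, RRM2, CCNE2, GINS1, MCM10, UHRF1 and UNG.

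**Figure D1:**
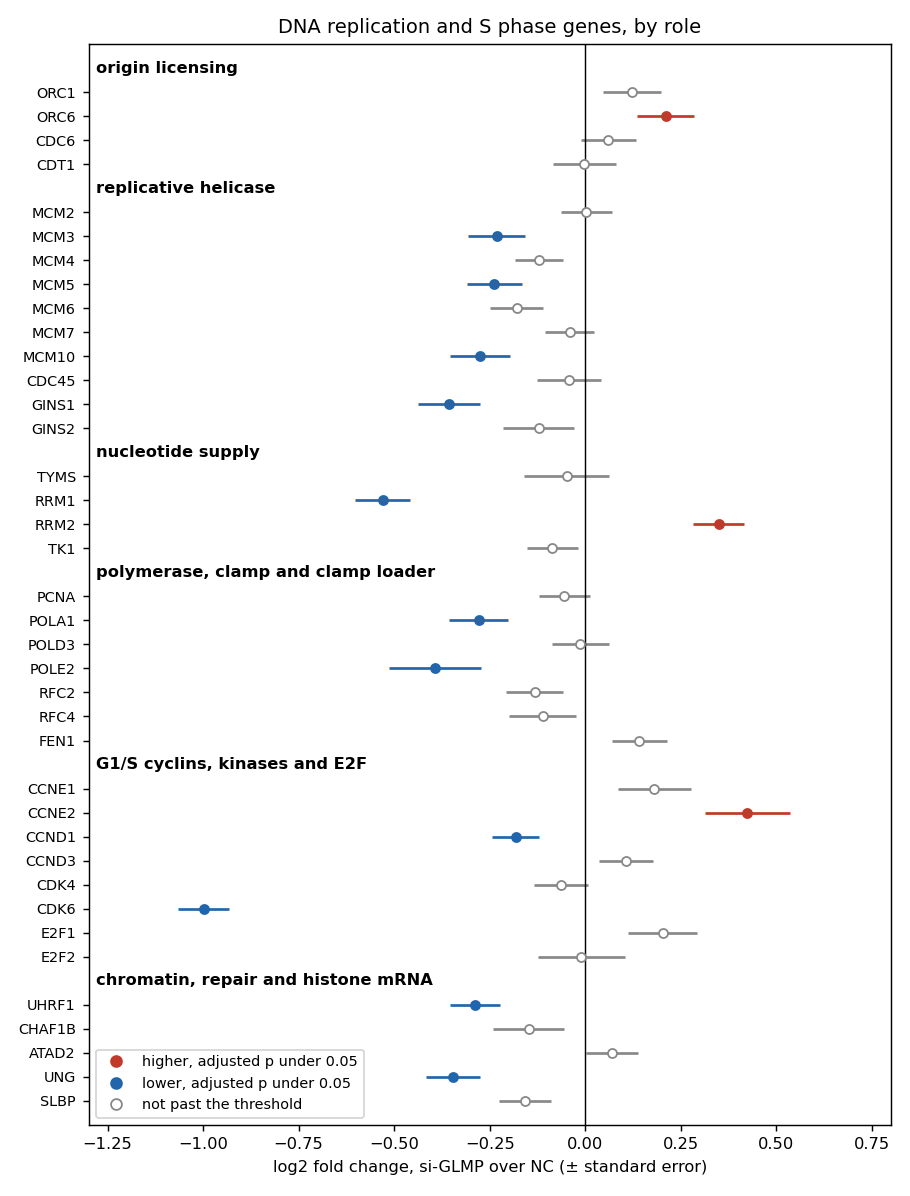
Log2 fold change of each of the 38 members, si-GLMP over NC, with its standard error, grouped by role; filled points passed an adjusted p under 0.05 in edgeR. CDK6 stands farthest left at -0.999, and the 3 members called higher are ORC6, RRM2 and CCNE2.

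Among the cyclins, kinases and E2F factors that drive the G1/S step, CDK6 fell most and CCNE2 rose. CDK6 (ENSG00000105810; GRCh38 chromosome 7, 92604921 to 92836594, minus strand) encodes a cyclin D-dependent kinase that phosphorylates RB. It had 123, 138 and 123 CPM in si-GLMP replicates 1 to 3, against 245, 269.8 and 253 CPM in NC replicates 1 to 3. The lowest NC library was well above the highest si-GLMP library. The level averaged 128 ± 8.52 CPM in si-GLMP and 256 ± 12.6 CPM in NC (SD, n = 3 each), a fall of 49.9%, from the fitted log2 fold change of -0.999 ± 0.07 (SE; adjusted p = 1.14e-17 in edgeR). Across the 15 alternatives the log2 fold change of CDK6 stayed between -1.05 and -0.93.

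CDK4, the other cyclin D kinase, was not called. It had 93.9, 81.3 and 89.3 CPM in si-GLMP replicates and 94.0, 89.5 and 92.9 CPM in NC replicates, and the ranges overlapped. The log2 fold change of CDK4 was -0.06, with a 95% interval of -0.21 to 0.08 (adjusted p = 0.572 in edgeR). The ratio of CDK6 to CDK4 counts was 1.31, 1.70 and 1.38 in si-GLMP replicates 1 to 3, against 2.61, 3.01 and 2.73 in NC replicates 1 to 3. Exons of TSPAN31 on the opposite strand cover 43.2% of the exonic length of CDK4; TSPAN31 itself was not called (log2 fold change 0.16, adjusted p = 0.415 in edgeR).

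Of the cyclin genes, CCNE2 was called higher, CCND1 lower, and CCNE1 and CCND3 did not pass. CCNE2, a cyclin E that activates CDK2, had 15.3, 18.9 and 18.2 CPM in si-GLMP replicates 1 to 3, against 12.5, 12.7 and 13.8 CPM in NC replicates 1 to 3. The groups did not overlap, and the log2 fold change was 0.42 ± 0.11 (SE; adjusted p = 0.00304 in edgeR). INTS8 and a further gene on the opposite strand cover 37.1% of the exonic length of CCNE2, and INTS8 had a log2 fold change of -0.18 (adjusted p = 0.0893 in edgeR). The related CCNE1 had 25.0, 25.2 and 28.6 CPM in si-GLMP replicates and 25.3, 20.6 and 23.6 CPM in NC replicates, which overlapped, with a log2 fold change of 0.18 (adjusted p = 0.178 in edgeR). The difference between CCNE2 and CCNE1 was not tested. Counts of CCNE2 per count of CCNE1 were 0.611, 0.749 and 0.635 in si-GLMP replicates and 0.492, 0.614 and 0.586 in NC replicates.

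CCND1, which encodes cyclin D1, the partner of CDK4 and CDK6, was among the most abundant members. It had 494, 508 and 500.2 CPM in si-GLMP replicates 1 to 3, against 560.4, 585 and 558 CPM in NC replicates 1 to 3. Each si-GLMP library was below each NC library, and CCND1 fell by 0.18 ± 0.06 on the log2 scale (SE; adjusted p = 0.0248 in edgeR). This call was lost with NC replicate 1, NC replicate 2, NC replicate 3 or si-GLMP replicate 3 left out, at adjusted p in edgeR of 0.0964, 0.0784, 0.0688 and 0.0957, and with no filter on low counts (0.0694). LTO1 shares 10.3% of the exonic length of CCND1 on the opposite strand and was higher (log2 fold change 0.21, adjusted p = 0.0268 in edgeR). CCND3, another D cyclin, had 86.4, 84.7 and 92.0 CPM in si-GLMP replicates and 80.7, 82.3 and 81.5 CPM in NC replicates. The CCND3 groups did not overlap, but the log2 fold change of 0.11 did not pass (adjusted p = 0.299 in edgeR).

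E2F1 and E2F2, activators of the S phase genes, were not called. E2F1 had 38.5, 34.8 and 39.2 CPM in si-GLMP replicates 1 to 3, against 38.1, 31.0 and 28.8 CPM in NC replicates 1 to 3. NC replicate 1 lay within the range of the si-GLMP libraries. The log2 fold change of E2F1 was 0.20 ± 0.09 (SE; adjusted p = 0.102 in edgeR), and with 1 library left out it ran from 0.12 without NC replicate 3 (adjusted p = 0.476 in edgeR) to 0.33 without NC replicate 1 (adjusted p = 0.0167 in edgeR), where alone it passed. For E2F2 it was -0.01, with a 95% interval of -0.24 to 0.22 (adjusted p = 0.964 in edgeR).

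**Figure D2:**
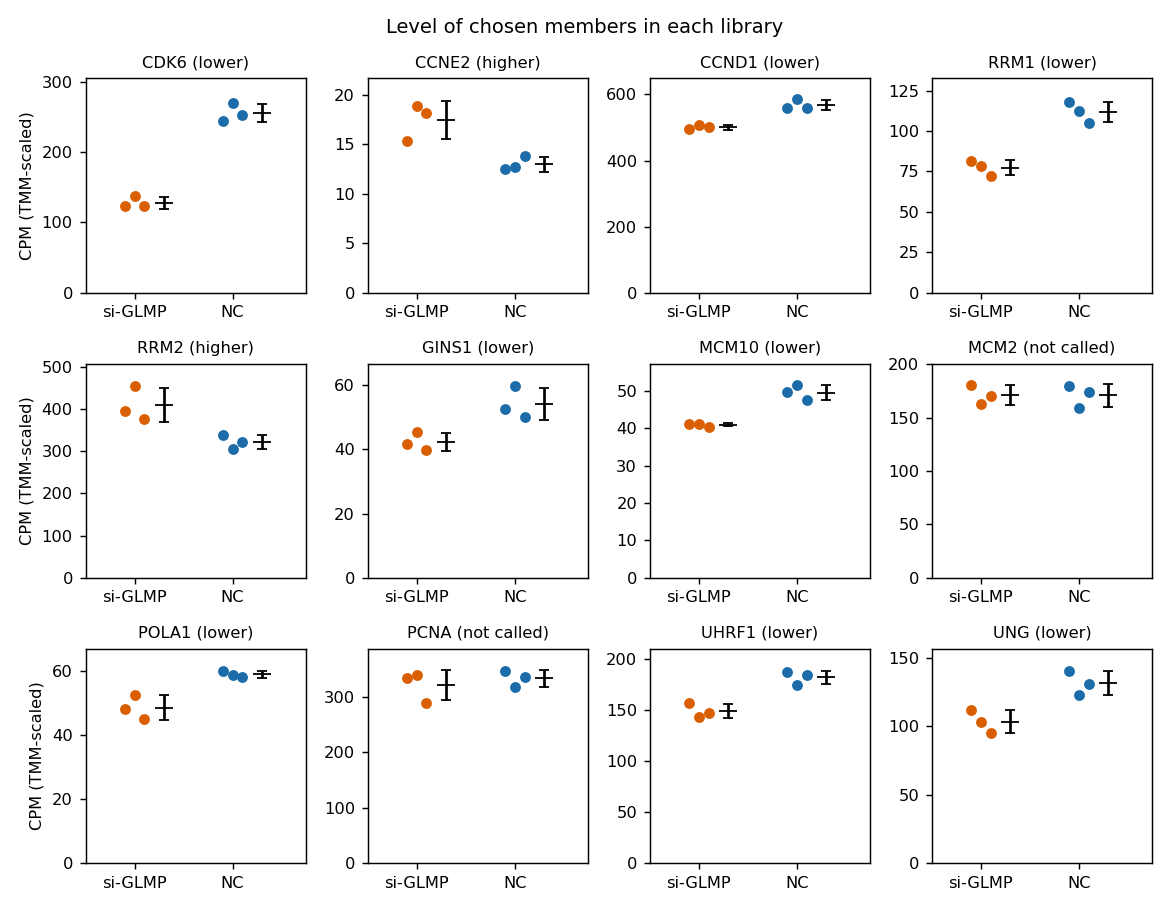
Level of 12 members in each library, in TMM-scaled CPM on axes that start at 0, with points for the 3 libraries of each group and the mean ± SD beside them. The si-GLMP points of CDK6, RRM1, GINS1 and UNG lie below all NC points, those of RRM2 and CCNE2 above, and those of MCM2 and PCNA overlap them.

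Of the 4 licensing genes, ORC6 was called higher and the other 3 did not pass. ORC6 encodes the smallest subunit of the origin recognition complex. It had 59.8, 60.2 and 59.9 CPM in si-GLMP replicates 1 to 3, against 50.2, 54.1 and 51.2 CPM in NC replicates 1 to 3. The si-GLMP libraries lay close together and above all NC libraries, with a log2 fold change of 0.21 ± 0.08 (SE; adjusted p = 0.0346 in edgeR). The ORC6 call was lost with NC replicate 1, NC replicate 3, si-GLMP replicate 1 or si-GLMP replicate 3 left out (adjusted p in edgeR of 0.166, 0.125, 0.0514 and 0.0814), and with no filter on low counts (0.0660).

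ORC1, the largest ORC subunit, averaged 62.2 ± 3.49 CPM in si-GLMP and 57.2 ± 2.20 CPM in NC (SD, n = 3 each; log2 fold change 0.12, adjusted p = 0.259 in edgeR). CDC6, the ATPase that joins ORC to load MCM, had a log2 fold change of 0.06, with a 95% interval of -0.08 to 0.20. CDT1, which brings MCM to the origin, had an interval of -0.17 to 0.16 around 0. The libraries of the groups overlapped in all 3 of these genes.

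Of the 10 replicative helicase genes, 4 were called lower. GINS1, a subunit of the GINS complex (ENSG00000101003; GRCh38 chromosome 20, 25407727 to 25452628, plus strand), fell most of the 10. It had 41.7, 45.2 and 39.8 CPM in si-GLMP replicates 1 to 3, against 52.6, 59.6 and 50.1 CPM in NC replicates 1 to 3. All si-GLMP libraries were below all NC libraries, and the log2 fold change was -0.36 ± 0.08 (SE; adjusted p = 0.000665 in edgeR). Its partner GINS2 had 22.8, 23.2 and 21.7 CPM in si-GLMP replicates and 25.4, 24.6 and 23.8 CPM in NC replicates, also without overlap. The change of GINS2, -0.12 on the log2 scale, did not pass (adjusted p = 0.380 in edgeR), and the difference between both subunits was not tested.

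MCM10, which helps to activate the loaded helicase, fell. It had 41.2, 41.1 and 40.4 CPM in si-GLMP replicates 1 to 3, against 49.6, 51.5 and 47.5 CPM in NC replicates 1 to 3, with no overlap. The log2 fold change was -0.28 ± 0.08 (SE; adjusted p = 0.00670 in edgeR). CDC45, which joins the MCM ring with GINS, had -0.04, with a 95% interval of -0.21 to 0.13.

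The 6 subunits of the MCM ring, which form one complex, were called only in part: MCM3 and MCM5 fell, and the other 4 did not pass. MCM5 had 97.1, 80.1 and 85.6 CPM in si-GLMP replicates 1 to 3, against 104, 105 and 102 CPM in NC replicates 1 to 3, and its log2 fold change was -0.24 ± 0.07 (SE; adjusted p = 0.0106 in edgeR). MCM3 had 88.5, 72.8 and 72.7 CPM in si-GLMP replicates and 93.0, 93.5 and 88.1 CPM in NC replicates, with a log2 fold change of -0.23 ± 0.07 (SE; adjusted p = 0.0177 in edgeR). The MCM3 ranges overlapped through si-GLMP replicate 1, the highest of its group in both genes. MCM5 was no longer called without NC replicate 1, si-GLMP replicate 2 or si-GLMP replicate 3 (adjusted p in edgeR of 0.0517, 0.0613 and 0.0772). MCM3 was no longer called when NC replicate 1 or 2 or si-GLMP replicate 2 or 3 was left out (0.0828, 0.0531, 0.0818 and 0.168).

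MCM6 did not pass, and its value moved with single libraries. It had 116, 109 and 97.7 CPM in si-GLMP replicates 1 to 3, against 122, 119.9 and 124 CPM in NC replicates 1 to 3, without overlap (log2 fold change -0.18, adjusted p = 0.0532 in edgeR). Without si-GLMP replicate 1 MCM6 passed, at -0.24 (adjusted p = 0.0149 in edgeR), while without si-GLMP replicate 3 it had -0.11 (adjusted p = 0.382 in edgeR). It also passed in 4 of the other alternatives, at 0.0337 to 0.0482, and not in the remaining 10. MCM4 also did not overlap, with 245, 238 and 236 CPM in si-GLMP replicates and 261, 262 and 259 CPM in NC replicates, at a log2 fold change of -0.12 (adjusted p = 0.168 in edgeR). MCM2 and MCM7 overlapped between the groups, with 95% intervals of -0.13 to 0.14 and -0.17 to 0.09 for the log2 fold change. Other genes cover 23.6% of the exonic length of MCM2 on the opposite strand, among them TPRA1 (log2 fold change 0.10, adjusted p = 0.433 in edgeR).

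Per length, MCM7 was the most abundant of the ring genes, at 83.1 ± 5.61 CPM per kb of exonic length in si-GLMP and 85.5 ± 0.249 CPM per kb in NC (SD, n = 3 each). MCM5 was the lowest of the ring, at 11.9 ± 1.18 CPM per kb in si-GLMP and 14.1 ± 0.217 CPM per kb in NC. The lengths are those of all annotated exons, so a gene with long unused exons appears low. Summed over the 6 ring genes, levels averaged 1049 ± 62.1 CPM in si-GLMP and 1123 ± 9.64 CPM in NC, and the ranges of the sums overlapped through si-GLMP replicate 1 at 1120.1 CPM.

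**Figure D3:**
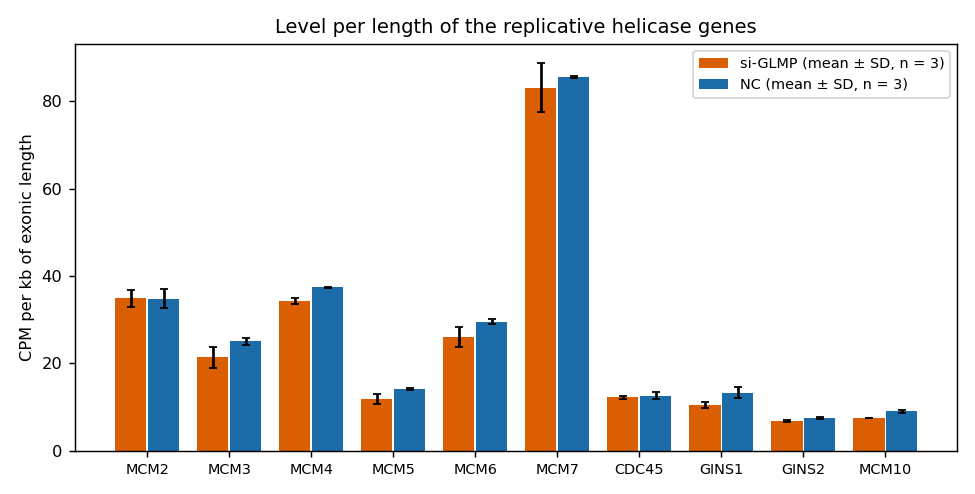
Mean level per length of the 10 replicative helicase genes in si-GLMP (left bars) and NC (right bars), in CPM per kb of exonic length, with SD over 3 libraries as error bars. MCM7 is the tallest pair, and GINS1 and MCM10 show lower si-GLMP bars than NC bars.

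The promoter of MCM6 is shown because, with both strands counted, it held the most E2F words of the members with a RefSeq promoter. E2F words searched were TTTGGCGC, TTTCGCGC, TTTCCCGC and TTTGCCGC, on both strands, in the 250 bases before the RefSeq start of each gene. The window of MCM6 (GRCh38.p14, chr2:135876444-135876693, minus strand, 5′ to 3′) is given with E2F matches in capitals. Its 4 matches form 2 pairs of overlapping words on opposite strands, from -152 to -141 and from -90 to -79 relative to the start. MCM7 and E2F1 held 2 words each, at separate positions.
MCM6: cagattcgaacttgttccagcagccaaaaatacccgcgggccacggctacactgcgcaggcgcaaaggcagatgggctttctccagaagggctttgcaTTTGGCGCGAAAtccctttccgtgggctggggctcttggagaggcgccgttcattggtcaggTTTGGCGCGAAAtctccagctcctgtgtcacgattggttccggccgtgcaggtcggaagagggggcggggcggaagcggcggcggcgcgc

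In nucleotide supply, the subunits of ribonucleotide reductase moved in opposite directions. The enzyme makes deoxyribonucleotides and is built from RRM1, the catalytic subunit, and RRM2, the radical-bearing subunit whose level rises in S phase. RRM1 (ENSG00000167325; GRCh38 chromosome 11, 4094707 to 4138876, plus strand) had 81.7, 78.4 and 72.1 CPM in si-GLMP replicates 1 to 3, against 118, 113 and 105 CPM in NC replicates 1 to 3. RRM2 (ENSG00000171848; GRCh38 chromosome 2, 10120698 to 10131419, plus strand) had 395, 454 and 377 CPM in si-GLMP replicates 1 to 3, against 337, 304 and 321 CPM in NC replicates 1 to 3. Neither gene overlapped between the groups. RRM1 fell by 0.53 ± 0.07 on the log2 scale (SE; adjusted p = 4.21e-08 in edgeR), and RRM2 rose by 0.35 ± 0.07 (SE; adjusted p = 5.57e-05 in edgeR).

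The ratio of RRM2 to RRM1 counts, which no scaling between libraries affects, was 4.84, 5.79 and 5.23 in si-GLMP replicates 1 to 3, against 2.86, 2.71 and 3.05 in NC replicates 1 to 3. The lowest si-GLMP ratio was above the highest NC ratio. Another annotated gene on the same strand covers 20.2% of the exonic length of RRM2, and annotated RRM2 pseudogenes held 1 count over the 6 libraries. The other enzymes of the group, TK1 and TYMS, were not called. TK1, the thymidine kinase, had a log2 fold change of -0.09 (adjusted p = 0.393 in edgeR); after removal of the GC and length trend across genes it had -0.19 and passed (adjusted p = 0.00646 in edgeR). TYMS, the thymidylate synthase, had -0.05, with a 95% interval of -0.27 to 0.18. ENOSF1 and TYMSOS, on the opposite strand, cover 46.6% of the exonic length of TYMS, and ENOSF1 was not called (log2 fold change 0.26, adjusted p = 0.107 in edgeR).

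**Figure D4:**
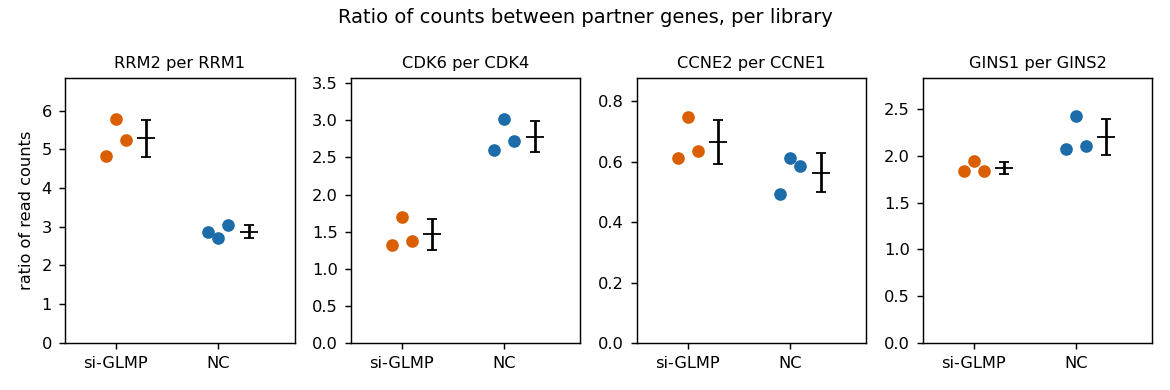
Ratio of read counts between partner genes in each library, with the 3 si-GLMP libraries left of the 3 NC libraries and mean ± SD beside the points. RRM2 per RRM1 is higher in every si-GLMP library and CDK6 per CDK4 lower, while CCNE2 per CCNE1 overlaps between the groups.

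The promoters of this oppositely moving pair are shown side by side, with CCAAT (either strand), the word bound by NF-Y, in capitals. Neither window held an E2F word. RRM2 (GRCh38.p14, chr2:10122489-10122738, plus strand) had 3 CCAAT words and RRM1 (chr11:4094435-4094684, plus strand) had 1. Of all 27305 promoters of the same length, 33.0% held CCAAT, and of the 32 member promoters 50%. These shares count windows with at least 1 word, so they give no background for 3 words against 1. The pair was chosen for this display after its changes were seen, and a link between the words and the changes was not tested.
RRM2: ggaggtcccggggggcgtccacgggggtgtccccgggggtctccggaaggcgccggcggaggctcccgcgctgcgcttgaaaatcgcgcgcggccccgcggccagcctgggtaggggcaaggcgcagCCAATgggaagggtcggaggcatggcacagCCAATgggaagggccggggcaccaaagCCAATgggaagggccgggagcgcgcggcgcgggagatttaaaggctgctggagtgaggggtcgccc
RRM1: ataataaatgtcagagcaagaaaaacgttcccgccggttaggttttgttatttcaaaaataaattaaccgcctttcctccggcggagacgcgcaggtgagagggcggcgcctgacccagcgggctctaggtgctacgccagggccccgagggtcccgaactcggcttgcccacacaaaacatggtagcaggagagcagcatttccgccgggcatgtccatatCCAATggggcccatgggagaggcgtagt

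Of the 7 genes of the polymerases, the clamp and its loader, 2 were called lower. POLA1 encodes the catalytic subunit of the polymerase that starts each new strand with a primer. It had 48.2, 52.5 and 44.9 CPM in si-GLMP replicates 1 to 3, against 60.1, 58.6 and 58.0 CPM in NC replicates 1 to 3, with no overlap. The log2 fold change was -0.28 ± 0.08 (SE; adjusted p = 0.00539 in edgeR), and without si-GLMP replicate 3 it was -0.22 (adjusted p = 0.0862 in edgeR).

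POLE2, a subunit of the leading-strand polymerase, had 10.9, 11.9 and 8.96 CPM in si-GLMP replicates 1 to 3, against 14.7, 13.4 and 13.8 CPM in NC replicates 1 to 3. The groups did not overlap, and si-GLMP replicate 3 was the lowest (log2 fold change -0.39 ± 0.12, SE; adjusted p = 0.0125 in edgeR). The POLE2 call was lost without NC replicate 1 (0.0719) and without si-GLMP replicate 3 (adjusted p = 0.148 in edgeR).

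PCNA, the sliding clamp, was not called. It had 335, 339 and 289.6 CPM in si-GLMP replicates 1 to 3, against 348, 317 and 336 CPM in NC replicates 1 to 3. The ranges overlapped, and the log2 fold change of -0.05 had a 95% interval of -0.19 to 0.08. Per length PCNA was the highest of the 38 in both groups, at 218 ± 18.5 CPM per kb in si-GLMP and 227 ± 10.4 CPM per kb in NC (SD, n = 3 each). POLD3, a subunit of the lagging-strand polymerase, had -0.01, with an interval of -0.16 to 0.14. The clamp loader genes RFC2 and RFC4 had -0.13 and -0.11 (adjusted p in edgeR of 0.210 and 0.395), and FEN1, the flap nuclease, had 0.14 (0.150). RFC2 had -0.21 and passed after removal of the GC and length trend (adjusted p = 0.00776 in edgeR).

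POLA1, which fell, and PCNA, which did not pass, each held 1 E2F word before their start, so their windows are given together. E2F matches are in capitals. POLA1 lies at GRCh38.p14 chrX:24693668-24693917 on the plus strand and PCNA at chr20:5126623-5126872 on the minus strand.
POLA1: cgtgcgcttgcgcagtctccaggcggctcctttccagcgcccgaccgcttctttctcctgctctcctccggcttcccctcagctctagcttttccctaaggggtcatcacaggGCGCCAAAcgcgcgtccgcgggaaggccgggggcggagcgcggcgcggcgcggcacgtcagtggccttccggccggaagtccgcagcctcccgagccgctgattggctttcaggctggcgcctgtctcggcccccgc
PCNA: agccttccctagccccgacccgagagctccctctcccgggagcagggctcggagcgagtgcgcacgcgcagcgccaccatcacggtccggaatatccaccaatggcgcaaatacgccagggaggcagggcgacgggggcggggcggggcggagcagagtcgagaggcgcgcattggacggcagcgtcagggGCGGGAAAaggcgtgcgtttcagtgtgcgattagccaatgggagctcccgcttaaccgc

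Among the genes of chromatin, repair and histone mRNA, UHRF1 and UNG fell. UHRF1 directs DNMT1 to newly replicated DNA, so that methylation is copied. It had 157, 144 and 147 CPM in si-GLMP replicates 1 to 3, against 187, 174 and 185 CPM in NC replicates 1 to 3. The groups did not overlap, and the log2 fold change was -0.29 ± 0.07 (SE; adjusted p = 0.000659 in edgeR). DNMT1 itself, from the list of other replication genes, had -0.04 (adjusted p = 0.733 in edgeR).

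UNG, the glycosylase that removes uracil from DNA, had 112, 103 and 94.7 CPM in si-GLMP replicates 1 to 3, against 140.1, 123 and 131 CPM in NC replicates 1 to 3. Every si-GLMP library was below every NC library, and the log2 fold change was -0.35 ± 0.07 (SE; adjusted p = 0.000165 in edgeR). SLBP, which binds the stem-loop of histone mRNAs, had 102, 96.8 and 98.8 CPM in si-GLMP replicates and 112, 113 and 107 CPM in NC replicates. Its groups did not overlap, but it did not pass (log2 fold change -0.16, adjusted p = 0.0856 in edgeR); after removal of the GC and length trend it had -0.23 and passed (adjusted p = 0.00139 in edgeR). CHAF1B, of the histone chaperone CAF-1, had -0.15 (adjusted p = 0.270 in edgeR), and the bromodomain ATPase gene ATAD2 had 0.07 (0.504).

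The window before UHRF1 (GRCh38.p14, chr19:4909251-4909500, plus strand) is shown. This member fell and held an E2F word close to its start, from -14 to -7. Words also lay close to the start in MCM7, from -9 to -2, and in E2F1, from -20 to -13, and neither was called. MCM3 and POLA1, which fell, held theirs farther away, from -174 to -167 and from -137 to -130. Capitals mark the word of UHRF1.
UHRF1: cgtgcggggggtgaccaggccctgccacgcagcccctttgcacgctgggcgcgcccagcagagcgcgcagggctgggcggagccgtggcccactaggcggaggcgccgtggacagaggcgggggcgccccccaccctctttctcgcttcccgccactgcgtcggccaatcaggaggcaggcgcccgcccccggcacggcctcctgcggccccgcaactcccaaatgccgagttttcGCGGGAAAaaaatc

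RefSeq promoters were found for 32 of the 38 members, and 11 of these (34.4%) held an E2F word, against 2.79% of all 27305 promoters. Such a word was also held by 14.9% of the promoters of other replication genes, 17.4% of G1/S regulators and 8.33% of mitosis genes. Of the 11 members with a match, 3 were called lower (MCM3, POLA1 and UHRF1) and 8 were not called. The 21 without a match held 6 lower and 2 higher calls. The median log2 fold change was -0.05 with a match and -0.09 without. A match is a description of letters in this window, not of binding. Only the exact words named above were counted, so a window without a match can hold a close variant of them. Without an entry were MCM4, MCM5, POLD3, CCNE2, CCND1 and ATAD2.

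Among the other replication genes, lower calls made up 12.7% of those tested and higher calls 5.45%. Of all tested genes, 11.3% were called lower and 12.0% higher. Of 56 listed genes, 55 were tested, and 7 were lower and 3 higher (18.2%, against 23.3% of all tested genes), with a median log2 fold change of -0.05. DSCC1, a subunit of the loader that places PCNA for sister chromatid cohesion, had 25.1, 25.8 and 23.1 CPM in si-GLMP replicates 1 to 3, against 41.1, 36.4 and 40.1 CPM in NC replicates 1 to 3. This was the largest change of the list, at -0.67 ± 0.09 (SE; adjusted p = 2.41e-08 in edgeR), and without overlap. RPA2, a subunit of the single-strand binding protein RPA, rose by 0.53 ± 0.08 (SE; adjusted p = 7.67e-07 in edgeR). It averaged 50.8 ± 1.44 CPM in si-GLMP and 35.3 ± 1.38 CPM in NC (SD, n = 3 each). Its partners RPA1 and RPA3 had 0.07 and -0.04 on the log2 scale (adjusted p in edgeR of 0.487 and 0.864).

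MCM9, a helicase gene related to the ring subunits and known for repair, fell by 0.52 ± 0.11 (SE; adjusted p = 0.000367 in edgeR). POLD4, the smallest subunit of the lagging-strand polymerase, rose by 0.57, PRIM2 of the primase had -0.35 and ORC3 had -0.30 (adjusted p in edgeR of 0.0140, 0.0343 and 0.0219). POLD4 passed neither without si-GLMP replicate 1 (0.0592) nor without si-GLMP replicate 3 (0.0513). PRIM2 was lost without NC replicate 1, 2 or 3 (0.103, 0.0790 and 0.0706) or si-GLMP replicate 3 (0.197), with no filter on low counts (0.0723) and by DESeq2 (0.0514). ORC3 was lost without NC replicate 1 or 2 (0.0593 and 0.0931) or si-GLMP replicate 1 or 3 (0.165 and 0.0720). RNASEH2A, a subunit of the nuclease that clears RNA from DNA, had 0 to 2 counts per si-GLMP library and 0 to 3 per NC library and was not tested. Another gene on the same strand covers 30.8% of its exonic length. The 7 lower calls became 4 with NC replicate 1 or si-GLMP replicate 3 left out, and the 3 higher calls became 5 without si-GLMP replicate 1.

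Of the regulators around the G1/S step, CDKN2C, CDKN1A and CDC25A rose most. Of 28 tested genes, 5 were higher and 4 lower (32.1%, against 23.3% of all tested genes), with a median of 0.03. CDKN2C, which encodes the CDK4 and CDK6 inhibitor p18, had 4.84, 5.80 and 4.60 CPM in si-GLMP replicates 1 to 3, against 2.61, 2.15 and 2.80 CPM in NC replicates 1 to 3. The groups did not overlap, and CDKN2C rose by 1.01 ± 0.19 on the log2 scale (SE; adjusted p = 3.43e-05 in edgeR). CDKN1A, the gene of the CDK inhibitor p21, averaged 80.4 ± 4.15 CPM in si-GLMP and 46.9 ± 4.98 CPM in NC (SD, n = 3 each), and rose by 0.78 ± 0.08 (SE; adjusted p = 1.40e-11 in edgeR). CDC25A, the phosphatase that activates CDK2, had 49.7, 48.7 and 49.5 CPM in si-GLMP replicates 1 to 3, against 36.7, 35.9 and 35.2 CPM in NC replicates 1 to 3. It rose by 0.46 ± 0.08 (SE; adjusted p = 1.18e-05 in edgeR), with no overlap.

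CDK2, the kinase of cyclin E, fell, in contrast to CCNE2 and CDC25A. It had 28.3, 25.4 and 25.4 CPM in si-GLMP replicates 1 to 3, against 35.2, 33.7 and 38.3 CPM in NC replicates 1 to 3, without overlap (log2 fold change -0.44 ± 0.09, SE; adjusted p = 0.000111 in edgeR). Other genes on the opposite strand cover 16.8% of its exonic length. TFDP2, a dimer partner of E2F factors, had -0.27 (adjusted p = 0.0249 in edgeR), and CDKN2B, another inhibitor of CDK4 and CDK6, had 0.31 (0.0498). The TFDP2 call was lost when any library but si-GLMP replicate 2 was left out, at 0.0627, 0.0677 and 0.0909 for NC replicates 1 to 3 and 0.0590 and 0.0962 for si-GLMP replicates 1 and 3. It was lost also with no filter on low counts (0.0603) and after removal of the GC and length trend (0.0621). CDKN2B lost the call in 10 of 15 alternatives, among them NC replicate 1 or 2 left out (0.248 and 0.197) and si-GLMP replicate 1, 2 or 3 left out (0.0729, 0.158 and 0.0844). Without NC replicate 3 it had 0.48 (adjusted p = 0.00648 in edgeR). The lower calls of this list became 1 when NC replicate 1 or 2 or si-GLMP replicate 3 was left out, and 2 when NC replicate 3 or si-GLMP replicate 1 was. The higher calls became 3 when any of NC replicates 1 and 2 and si-GLMP replicates 2 and 3 was left out.

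Mitosis genes, of the stage that follows, had a median log2 fold change of -0.09. Of 30 listed genes, 29 were tested, and 4 were lower and 0 higher by edgeR (13.8%, against 23.3% of all tested genes). Of all tested genes, 11.3% were called lower and 12.0% higher. DESeq2 and limma-voom also called 0 mitosis genes higher. NUSAP1, with 4 to 10 counts per si-GLMP library and 0 to 7 per NC library, was not tested. At an unadjusted p under 0.05, 8 were lower and 1 higher, CDK1, which is named for this count after its value was seen (log2 fold change 0.14). Of all 15900 tested genes, 2589 were lower and 2758 higher at the same unadjusted threshold in edgeR. AURKA, a spindle kinase gene, had 98.7, 104 and 101.8 CPM in si-GLMP replicates 1 to 3, against 132, 134 and 133 CPM in NC replicates 1 to 3 (log2 fold change -0.39 ± 0.07, SE; adjusted p = 1.02e-05 in edgeR), without overlap. CENPF, a kinetochore protein gene, had -0.41 (adjusted p = 3.32e-06 in edgeR). FOXM1, the transcription factor of G2 and M phase genes, had -0.25 (adjusted p = 0.00680 in edgeR), and the checkpoint kinase gene BUB1B -0.26 (0.0153). FOXM1 was lost without NC replicate 2 (0.0978), and BUB1B without NC replicate 1, NC replicate 2 or si-GLMP replicate 1 (0.0589, 0.0709 and 0.126). The 4 lower calls became 2 without NC replicate 2 and 8 without si-GLMP replicate 2, and 2 genes were called higher without si-GLMP replicate 1. Whether the replication and mitosis genes differ from each other was not tested.

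**Figure D5:**
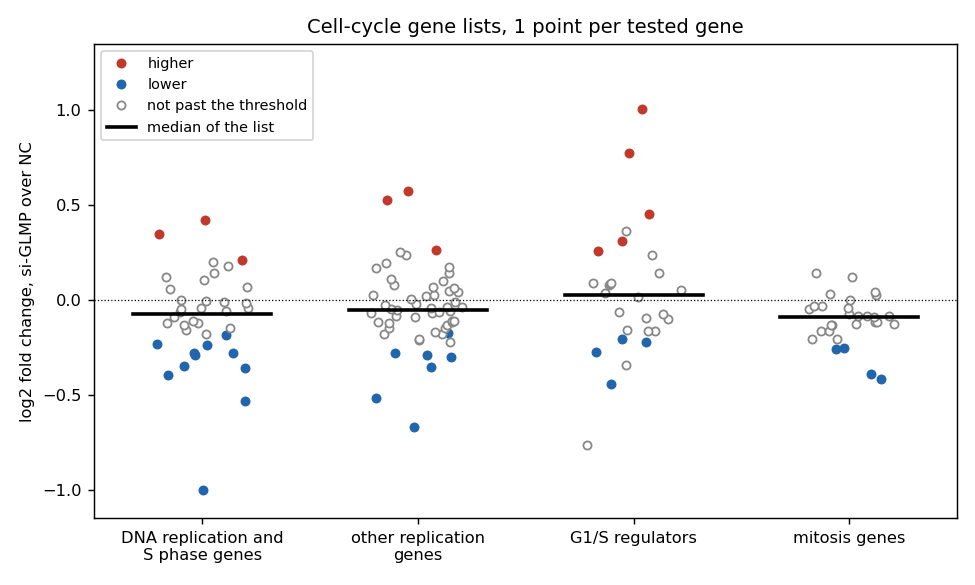
Log2 fold change, si-GLMP over NC, of each tested gene of the 38 replication genes and 3 further lists, with the median of each list as a bar and filled points for genes past an adjusted p under 0.05 in edgeR. Medians lie between -0.09 and 0.03, and the points far from zero are single genes such as CDK6, CDKN2C, CDKN1A and DSCC1.

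Ranked by level per length in si-GLMP and in NC, the members began and ended alike. PCNA, CCND1, MCM7, TK1, RRM2 and SLBP held the first 6 ranks in this order in both groups, and E2F2 was the last. MCM7 and TK1 were neighbours whose levels did not differ beyond their spread, at 83.1 ± 5.61 and 80.0 ± 6.39 CPM per kb in si-GLMP and at 85.5 ± 0.249 and 85.0 ± 1.05 CPM per kb in NC (SD, n = 3 each). CDK6 moved farthest, to rank 27 in si-GLMP, against rank 18 in NC. Its level per length was 10.5 ± 0.695 CPM per kb in si-GLMP and 20.9 ± 1.02 CPM per kb in NC.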

How the data were processed

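RNA-seq of 6 PC9OR libraries was used, 3 si-GLMP and 3 NC, grouped by sample title. The authors deposited read counts per gene, whole numbers whose totals differ between libraries, not normalized. The submitters' processing notes list HISAT2 and the build GRCh38. For the counting tool, annotation and strand, the setting is not given in the sources used here, so reads of genes that overlap on opposite strands cannot be told apart. The labels do not say whether replicates were separate cultures, so the p-values cover only how these libraries vary, and that variation may be technical. No pair of libraries of the same group agreed within sampling noise (chi-square per degree of freedom 2.22 or more). In NC, replicates 1 and 3 had 2.22, and the pairs with replicate 2 had 10.3 and 11.9. The si-GLMP pairs had 4.74 to 8.94.

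Counts were tested with edgeR 4.0.16 in R 4.3.3 (filterByExpr with a minimum count of 10, TMM scaling, robust quasi-likelihood F test with no term but group). Adjustment was by Benjamini-Hochberg over all 15900 tested genes, with a threshold of 0.05. Log2 fold changes are si-GLMP over NC, standard errors are the fold change over the square root of F, and 95% intervals use the t distribution of the fit. A count of 3 was worth 0.133 to 0.151 CPM. Exonic lengths, positions and overlaps came from GENCODE (GRCh38), and promoters from RefSeq (GRCh38.p14).

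In simulated data with 15554 genes, 26 of 49 genes changed 1.3-fold, 40 of 50 changed 1.5-fold, 44 of 49 changed 2-fold and 47 of 49 changed 3-fold were recovered, with 8 false calls. Results were recomputed with RLE or upper-quartile scaling, without a filter, with 1 CPM in 3 libraries, DESeq2 1.42.0, limma-voom (limma 3.58.1), a replicate block, each library left out, and a threshold of 0.01. Removal of the GC and length trend (15750 genes with values) and of mitochondrially encoded genes were added after the data were seen. The members and lists were chosen with earlier results of these data known. Named are GLMP, the 38 members, CDKN1A, and up to 6 called genes of each further list with the largest absolute log2 fold change. Genes that overlap a member, and CDK1, DNMT1, RPA1, RPA3, RNASEH2A and NUSAP1, were named after their values were seen.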

Additional observations from a re-analysis of the deposited data

How the results depend on the processing

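No called member changed sign in any of the 15 alternatives. Across 570 member values, 518 kept direction and side of the threshold, 20 lost the call, 9 gained it and 23 changed sign, all of them uncalled and near 0. The members numbered 11 lower and 3 higher, and 6 to 12 lower and 2 to 3 higher with 1 library left out. At an adjusted p under 0.01 the lower members were 7, the lower other replication genes 4, the G1/S regulators 3 higher and 1 lower, and all genes 1233 higher and 1141 lower. With no filter the G1/S regulators were 3 higher and 1 lower, and by DESeq2 3 were higher. With the GC and length trend removed, 6 other replication genes were higher, 8 mitosis genes lower and 15 members lower, with TK1, RFC2, SLBP and MCM6 gained. Calls over all genes grew as well under that setting, from 1910 to 2264 higher and from 1802 to 2103 lower. With 1 library left out, other replication genes ran from 2 to 5 higher and 4 to 10 lower, G1/S regulators from 3 to 5 higher and 1 to 5 lower, mitosis genes from 0 to 2 higher and 2 to 8 lower, and all genes from 1482 to 1788 higher and 1283 to 1660 lower.

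Log2 fold changes crossed 0 for 8 uncalled members. With 1 library left out, CDT1 ran from -0.089 to 0.062, MCM2 from -0.045 to 0.044, MCM7 from -0.097 to 0.0028, TYMS from -0.14 to 0.034, PCNA from -0.094 to 0.022, POLD3 from -0.035 to 0.030, E2F2 from -0.11 to 0.077 and ATAD2 from -0.0052 to 0.12. Under other settings CDT1 had 0.0073 with upper-quartile scaling and 0.0017 with no filter. MCM2 had -0.00094 with RLE scaling, -0.00095 by DESeq2, -0.029 after removal of the GC and length trend and -0.0050 when mitochondrially encoded genes were left out, and POLD3 had 0.015 after that removal. The cause was not tested.

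Over all tested genes, libraries that share a replicate number deviated together weakly (r of 0.04, 0.03 and 0.0013). Of 6 libraries, 5 correlated best with their own number, a hint from the data and not from the design. On the second principal component, the axis of second largest spread, replicates 1 to 3 lay at 13.6, -20.8 and 8.00 in NC. In si-GLMP they lay at 12.3, -15.4 and 2.33, in the same order. Whether replicates were paired was not tested. With the replicate block 12 members were lower and 3 higher, and MCM6 passed (edgeR adjusted p = 0.0337); all genes came to 2052 higher and 1920 lower, other replication genes to 3 higher and 8 lower, G1/S regulators to 6 of each and mitosis genes to 6 lower. The simulation recovered 26 of 49 changes of 1.3-fold. Its changed genes were drawn from all tested genes, whose median was 16.2 CPM against 80.9 CPM for the members. How often changes of that size go uncalled among the members was therefore not measured.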
